A study of Mus musculus with 2 samples.

Results

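The lysosomal genes described here are 37 of the 32285 genes measured, taken by symbol: 23 genes of lysosomal enzymes, lysosomal membrane proteins and their regulators, and 14 genes of the proton pump that acidifies the lysosome. They were followed in single-cell RNA sequencing of macrophages from mouse hearts 3 days after myocardial infarction (MI). Infarct and border tissue had been sorted for cells carrying CD45 (all leukocytes), CD11b (myeloid cells) and CD64 (a macrophage Fc receptor). There were 2 groups, wild type (WT) mice with infarction and CD40 knockout (KO) mice with infarction, and 1 library in each. The sources used here give neither the allele nor the age nor the number of mice, and the samples include no heart without infarction.

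The lysosome is the compartment in which a macrophage breaks down the dead cells it has engulfed. Hydrolases work there at acid pH, small carrier proteins and transporters pass lipids and cholesterol on, and heavily glycosylated membrane proteins line the organelle. The pump, or V-ATPase, has a membrane sector (V0) that carries protons and a cytosolic sector (V1) that hydrolyses ATP. The transcription factors TFEB and TFE3 can raise transcription of many of these genes together by binding a short E-box, CACGTG, near their start sites. After infarction, cardiac macrophages are known for clearing dead cardiomyocytes and neutrophils.

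The WT library had 139343516 UMIs (distinct molecules) in 10624 barcodes, and the library labelled CD40 KO, here the KO-labelled library, 90057108 UMIs in 8146 barcodes. After filters and doublet removal, 7406 and 7413 barcodes fell into 13 clusters, built without the members and the other lysosomal genes listed further on. The lysosomal protease gene Ctsl, in none of these lists, was not left out and is among the 10 leading genes of cluster 1. The monocyte/macrophage-like class, clusters 1, 2, 3 and 7, held 5367 and 2356 barcodes with medians of 11516 and 15020 UMIs. Cluster 4, left unnamed, held 39 barcodes of WT and 4359 of the other library, 58.8% of it, so most barcodes of that library are outside the class, and its members' values are given separately. The 2 libraries shared 23 barcode sequences, 3 of them within the class. Cd40, the targeted gene, was detected in both libraries, at 18.0 UMIs per 1000000 (CPM) in the class of WT and 15.5 CPM in that of the KO-labelled library. A 3′ tag outside a deleted part does not check the genotype, so directions are given between libraries by their labels. With 1 library per group no test was possible, and every interval is a 95% interval for counting error only.

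To show the element through which TFEB and TFE3 act, the 300 bases around each RefSeq start site (250 before and 50 after, GRCm38.p6) were searched for CACGTG, which reads the same on both strands. Of the 37 members, 31 are in the promoter table, and 9 of these 31 (29%) held the motif, against 8.09% of 27025 genes and 7.15% of all 32851 windows of this length. Among the other lysosomal genes listed further on, 19 of 83 (22.9%) held it. The motif was chosen for its known role at genes of this kind, so its share is no independent result. The 27025 genes were not matched to the members for expression or base composition. Lamp1, a main glycoprotein of the lysosomal membrane, had 4 copies within 61 bases of its start; Mcoln1, a lysosomal cation channel, and Atp6v0b, a V0 subunit, had 2 each. The windows printed here run 5′ to 3′ on the gene's strand and stop before the RefSeq start site. By the GENCODE gene positions, those of Naglu, Mcoln1 and Atp6v0b lie partly and that of Atp6v1a wholly inside the gene. Capitals mark CACGTG, and a match is a description of letters, not of binding. Lamp1, Mcoln1 and Atp6v0b are shown as the promoters with more than 1 copy, and Naglu, Gaa and Glb1, glycosidases, and Atp6v1a, a V1 subunit, for their single copies.
Lamp1 (chr8:13159080-13159160, plus strand): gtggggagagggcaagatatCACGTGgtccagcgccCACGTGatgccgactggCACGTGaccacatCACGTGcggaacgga
Mcoln1 (chr8:3500428-3500499, plus strand): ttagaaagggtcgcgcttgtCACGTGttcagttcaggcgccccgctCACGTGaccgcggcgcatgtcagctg
Atp6v0b (chr4:117887330-117887385, minus strand): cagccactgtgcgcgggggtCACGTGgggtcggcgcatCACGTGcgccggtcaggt
Naglu (chr11:101070001-101070046, plus strand): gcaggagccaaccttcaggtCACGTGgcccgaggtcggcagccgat
Gaa (chr11:119267803-119267848, plus strand): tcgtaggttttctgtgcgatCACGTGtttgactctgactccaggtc
Glb1 (chr9:114401010-114401055, plus strand): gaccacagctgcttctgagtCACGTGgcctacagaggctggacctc
Atp6v1a (chr16:44139365-44139410, minus strand): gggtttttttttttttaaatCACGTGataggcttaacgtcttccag

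The remaining 2 promoters with the motif were those of the V0 genes Atp6v0d1 and Atp6v0e, where it lay 3 bases before and 3 bases after the start. Each of the 9 promoters also held the longer form TCACGTG, found in 4.29% of all genes. A 10-base palindrome with CACGTG at its centre was searched as well. It was in 0 of the 31 members, against 0.37% of all genes and 4.82% of the 83 other lysosomal genes. The variant TCATGTG was in 4 of the 31 (12.9%), those of Atp6v0c, Grn, Scarb2 and Tpp1, against 4.31% of all genes. Npc1, Asah1, Atp6v0d2, Atp6v1b2, Atp6v1c1 and Atp6v1h are named only.

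In the macrophage class the lysosomal members were lower as a group in the KO-labelled library. Together the 37 genes took up 1.56% of UMIs in WT (1.56 to 1.57) and 1.16% (1.15 to 1.16) in the KO-labelled library. Psap had the highest level of the members and the largest difference in CPM, so it weighs most in these shares. Of the 35 members with a mean of at least 10 CPM, none was at least 1.3-fold higher, 13 were at least 1.3-fold lower and 22 lay between. Over all 7590 genes at that level these shares were 19.8% higher and 10.4% lower. The members' median log2 ratio was -0.23 (medians of the interval bounds -0.28 and -0.19), beside 0.09 over all genes. Scaling by the median gene instead of total UMIs takes that 0.09 from every ratio and moves the members' median to -0.32. Mcoln1, at 9.3 and 6.7 CPM, and Smpd1 (acid sphingomyelinase), at 9.0 and 8.5 CPM, stayed under the level minimum. The difference was uneven: 10 of the 21 measured members outside the pump passed the 1.3-fold limit (median -0.30), against 3 of the 14 pump members (median -0.18).

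Values of other genes and of the barcodes moved with this difference. The lipid-associated state (cluster 1, led by Gpnmb, Lpl and Fabp5) made up 61.0% of class barcodes in WT (59.7 to 62.3) and 34.9% (33.0 to 36.9) in the KO-labelled library. The state named for Met and F13a1 (cluster 2, also led by the monocyte genes Ly6c2, Plac8 and Ccr2) made up 30.3% and 48.4%, and the cycling state (cluster 7) 5.35% and 14.3%. The 10 leading genes of cluster 2 include Met, Plcb1, Vcan and Thbs1 beside the monocyte-state genes Ly6c2, Plac8, Chil3 and Ccr2, but not F13a1. Genes that define these clusters differ between the libraries themselves, so the shares are given only beside the ratios. The 14 monocyte/macrophage markers, all detected, summed to 19811 and 13986 CPM, and ribosomal protein genes took 9.80% and 11.7% of UMIs. Summed neutrophil markers were 126 and 124 CPM with all 9 detected, dendritic markers 8.71 and 24.1 CPM with all 11 detected, and fibroblast markers 13 and 31.3 CPM with all 7 detected. The 13 lower genes span 1941 (Cd68) to 45765 bases (Atp6v0d2). Longer members, Lamp2 (55098) and Atp6v1h (92512) among them, stayed within the limit, as did the short Atp6v1f (2795) and Atp6v0c (5837). The part of depth, markers, ribosomal share and gene length in the result was not tested. With each cluster given equal weight the members' median was -0.22, with each barcode thinned to 3000 UMIs it was -0.26, and 10 and 14 members were at least 1.3-fold lower. Shares over all genes in these settings are not given here.

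**Figure D1:**
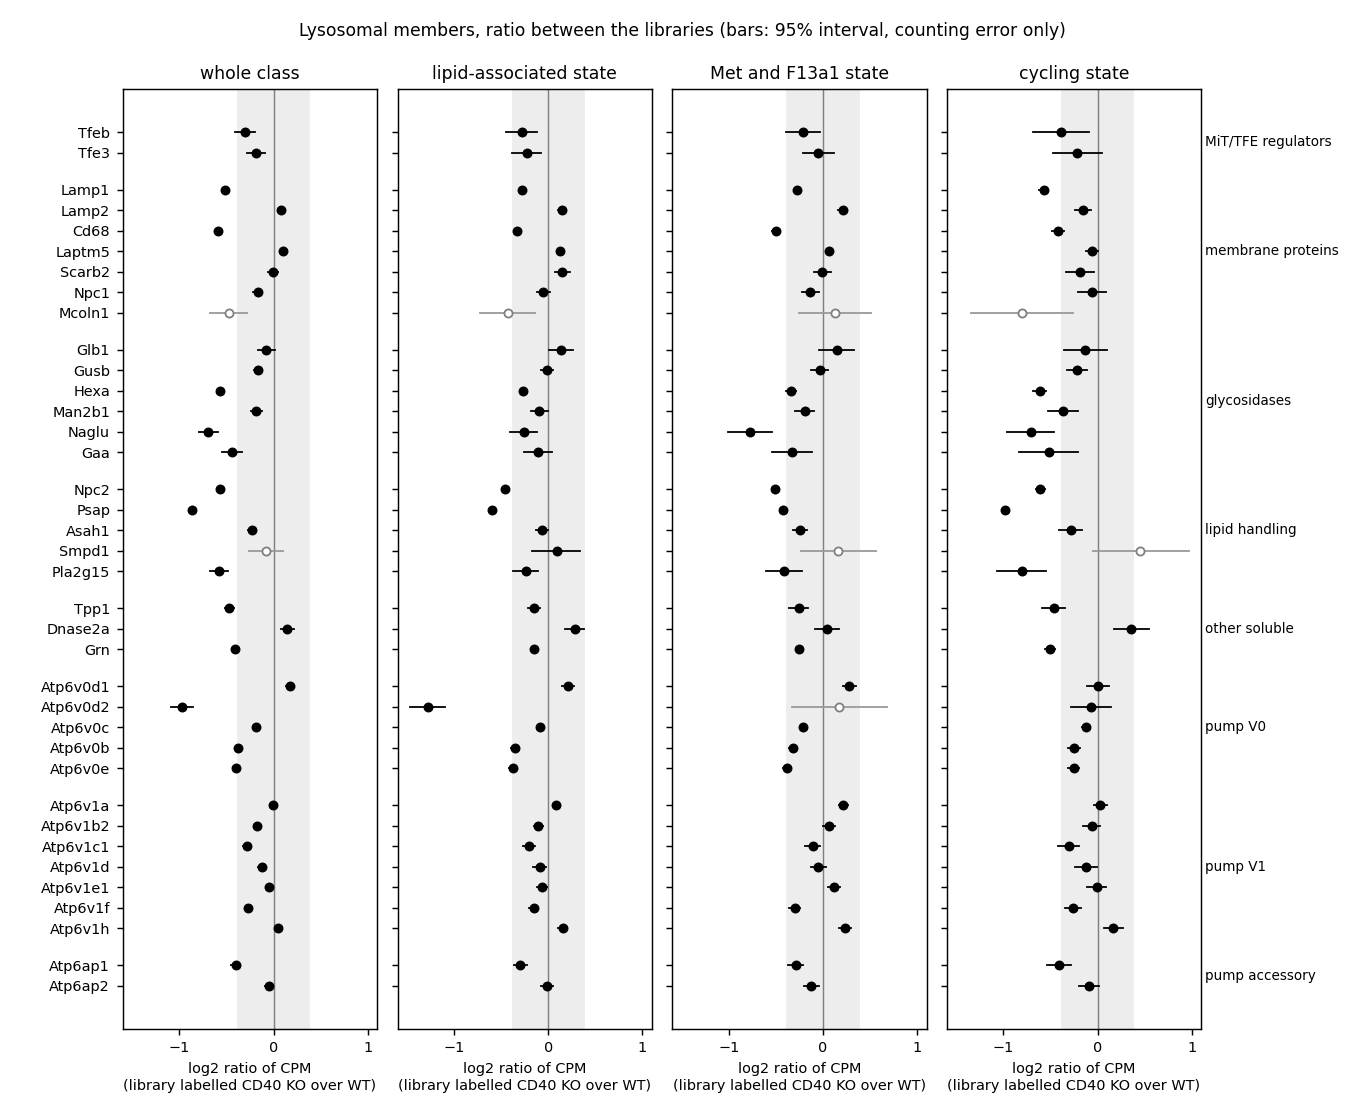
Log2 ratio of CPM (library labelled CD40 KO over WT) of each of the 37 members, grouped by role, in the whole class and in 3 of its states; points are ratios, bars 95% intervals for counting error, open points members under 10 CPM and the gray band ratios within 1.3-fold. No measured member lies to the right of the band, while Psap, Npc2 and Cd68 lie to its left in the class, and the 7 V1 subunits stay inside it in all 4 panels.

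The 2 regulators were low in both libraries. Tfeb was at 30 CPM in WT and, in the KO-labelled library, 24.3 CPM, a log2 ratio of -0.30 (-0.41 to -0.20). Tfe3 was at 33.4 and 29.3 CPM, a ratio of -0.19 (-0.28 to -0.09). Neither passed the 1.3-fold limit, although Tfeb did in 5 of 20 other ways of computing the ratio. At 3000 UMIs per barcode, 9.24% of WT barcodes (8.46 to 10.1) and 6.83% (5.83 to 7.95) of those of the other library had a Tfeb UMI, while without thinning the shares were 30.8% and 33.2%. In WT endothelial-like barcodes, whose median depth was 5836 UMIs, the thinned share was 6.94% (3.38 to 12.4), so single barcodes say little about Tfeb.

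Among the lysosomal membrane proteins, 2 of the 6 measured were lower by at least 1.3-fold and none was higher. Cd68, the glycoprotein by which tissue macrophages are often stained (chr11:69664213-69666153), was at 677 CPM in WT and, in the KO-labelled library, 449 CPM, a log2 ratio of -0.59 (-0.62 to -0.57). Lamp1 was at 1131 and 790 CPM, a ratio of -0.52 (-0.53 to -0.50). The other 4 stayed within the limit, and the pair of Lamp genes did not move alike: Lamp2, which also serves chaperone-mediated autophagy, was at 329 and 348 CPM (0.08, interval 0.05 to 0.11). Lamp1 spans 16178 bases and Lamp2 55098, and the part of gene length was not tested. Laptm5, a lysosomal protein of blood cells, was at 571 and 613 CPM (0.10, interval 0.08 to 0.12). Npc1, the membrane protein that exports cholesterol, was at 126 and 112 CPM, a ratio of -0.17 (-0.22 to -0.12). Scarb2, the receptor that carries glucocerebrosidase to the lysosome, was at 105 CPM in both. Scaling by the median gene left Laptm5 at 0.01 and turned Lamp2 to -0.01, so the direction of Lamp2 does not hold under each scaling.

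Lipid handling had the lowest median ratio of the roles, -0.57, with 3 of its 4 measured genes at least 1.3-fold lower. Psap (chr10:60277627-60302597) encodes prosaposin, the precursor of the saposins that present sphingolipids to hydrolases. Its level was 4506 CPM (4491 to 4521) in WT and 2474 CPM (2460 to 2488) in the KO-labelled library, a log2 ratio of -0.86 (-0.87 to -0.86). Npc2, the soluble cholesterol carrier that works with NPC1, was at 1210 and 819 CPM, a ratio of -0.56 (-0.58 to -0.55), more than that of Npc1. Pla2g15, a lysosomal phospholipase, was at 40.3 and 27.0 CPM (-0.58, interval -0.68 to -0.49). Asah1, acid ceramidase, stayed within the limit at 169 and 144 CPM (-0.23).

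The glycosidases, enzymes that trim sugars from glycoproteins, glycolipids and glycosaminoglycans, divided evenly, with 3 of 6 at least 1.3-fold lower. Naglu, which degrades heparan sulfate (chr11:101070012-101077672), was at 36.1 and 22.4 CPM, a log2 ratio of -0.69 (-0.79 to -0.59). Hexa, the alpha subunit of beta-hexosaminidase, was at 467 and 315 CPM (-0.57), and Gaa, acid alpha-glucosidase, which degrades glycogen, at 28.4 and 20.9 CPM (-0.44). Gusb (beta-glucuronidase), Man2b1 (alpha-mannosidase) and Glb1 (beta-galactosidase) had ratios of -0.16, -0.18 and -0.08. Glb1 shares exon sequence with Tmppe on the same strand, so its count is uncertain. Of the 3 other soluble members, Tpp1, a peptidase, was at 159 and 115 CPM (-0.47), and Grn, progranulin, at 878 and 662 CPM (-0.41, interval -0.43 to -0.39). Dnase2a, the acid DNase that degrades DNA of engulfed cells, was at 56.4 and 62.4 CPM, a ratio of 0.14 (0.08 to 0.21). Grn was past the limit in 16 of 20 other computations, Tpp1 and Hexa in all 20.

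The proton pump held both the lowest and the highest ratio of all members, and these belonged to the alternative d subunits of its V0 sector. Atp6v0d2 (chr4:19876841-19922605), the form enriched in osteoclasts and some macrophages, was at 33.5 CPM (32.3 to 34.9) in WT and 17.1 CPM (15.9 to 18.3) in the KO-labelled library, a log2 ratio of -0.97 (-1.09 to -0.86). Atp6v0d1 (chr8:105524465-105566047), the form made in most tissues, was at 157 and 177 CPM, a ratio of 0.17 (0.13 to 0.21). The proteolipid c subunit gene Atp6v0c was at 1299 and 1138 CPM (-0.19). Atp6v0e was at 603 and 457 CPM (-0.40), and Atp6v0b at 567 and 437 CPM (-0.38), just inside the 1.3-fold limit of 0.38. None of the 7 V1 subunits passed the limit: their ratios ran from -0.28 for Atp6v1c1 to 0.05 for Atp6v1h, and Atp6v1a, the catalytic subunit, was at 434 and 431 CPM (-0.01). Of the accessory proteins, Atp6ap1 was at 167 and 126 CPM (-0.40) and Atp6ap2, the prorenin receptor, at 163 and 157 CPM (-0.05). Exons of Atp6v0b, Atp6v1e1, Atp6v1h, Dnase2a, Grn, Hexa, Lamp1 and Npc1 overlap an antisense gene, and the sources used here do not state whether counting used strand.

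The same ratios were computed within single states. In the lipid-associated state 3 of 36 measured members were at least 1.3-fold lower and none higher (8.13% of 7476 genes lower, 16.8% higher), with a median of -0.11. In the Met and F13a1 state 6 of 34 were lower and none higher (14.9% of 7364 genes lower, 16.4% higher), with a median of -0.20. In the cycling state 12 of 35 were lower and none higher (12.1% of 8024 genes lower, 20.1% higher), with a median of -0.25. The count in the lipid-associated state is sensitive: it was 10 after thinning to 3000 UMIs, 7 with scaling by the median gene and 9 at clustering resolution 0.3. Shares over all genes at these settings are not given here. The main counts in the lipid-associated state and in the Met and F13a1 state are close to their background shares, so they say little about the members. Pump members passed the limit in 1 of 14, 1 of 13 and 1 of 14 cases: Atp6v0d2, Atp6v0e and Atp6ap1.

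Psap kept a difference past the limit in each of these states. Its level in WT and in the KO-labelled library was 5299 and 3511 CPM in the lipid-associated state (-0.59), 2733 and 2044 CPM in the Met and F13a1 state (-0.42), and 3625 and 1837 CPM in the cycling state (-0.98). Npc2 had ratios of -0.46, -0.51 and -0.61 in the same order. Cd68 had -0.33, -0.50 and -0.42, Hexa -0.26, -0.34 and -0.62, and Lamp1 -0.28, -0.28 and -0.57. Naglu was at 40.7 and 34.0 CPM in the lipid-associated state (-0.26), 21.8 and 12.8 CPM in the Met and F13a1 state (-0.77), and 40.8 and 25 CPM in the cycling state (-0.71). Grn had -0.15, -0.25 and -0.51 and Tpp1 -0.15, -0.26 and -0.47, so both lay inside the limit in the 2 larger states. Whether the ratios differ between states was not tested.

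The lipid-associated state held more lysosomal transcript than the Met and F13a1 state in either library. In WT 16 of the 35 measured were 1.3-fold or more higher and none lower (10.2% of 7375 genes higher, 15% lower), with a median log2 ratio of 0.22 beside -0.05 over all genes. In the KO-labelled library 15 of 35 were higher and none lower (13.6% of 7498 genes higher, 13.1% lower), with a median of 0.30 beside 0.00. The 14 members higher in both made up 14 of the 16 and 14 of the 15, and 31 members had the same sign in both. The difference lay mostly outside the pump: there 11 and 12 of 21 passed the limit (medians 0.55 and 0.60), against 5 and 3 of 14 in the pump (medians 0.22 and 0.24). Counted over the 4 clusters of the class, 25 of 37 members had their highest level in the lipid-associated state in WT and 24 in the other library. The same share over all genes was not computed, so these counts do not set the members apart. They include Smpd1, under the level minimum, and Atp6v1f, whose highest level in WT was only 1.08 times its lowest. Median UMIs per barcode differed with the states, 12840 against 9055 in WT and 16242 against 13199 in the other library, and their part in the result was not tested. The Met and F13a1 state is also led by monocyte genes. Its core macrophage markers, over both libraries, stood at 71.3% of their level in the lipid-associated state, and their part was not tested either. After thinning to 3000 UMIs the median in the KO-labelled library was 0.35.

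**Figure D2:**
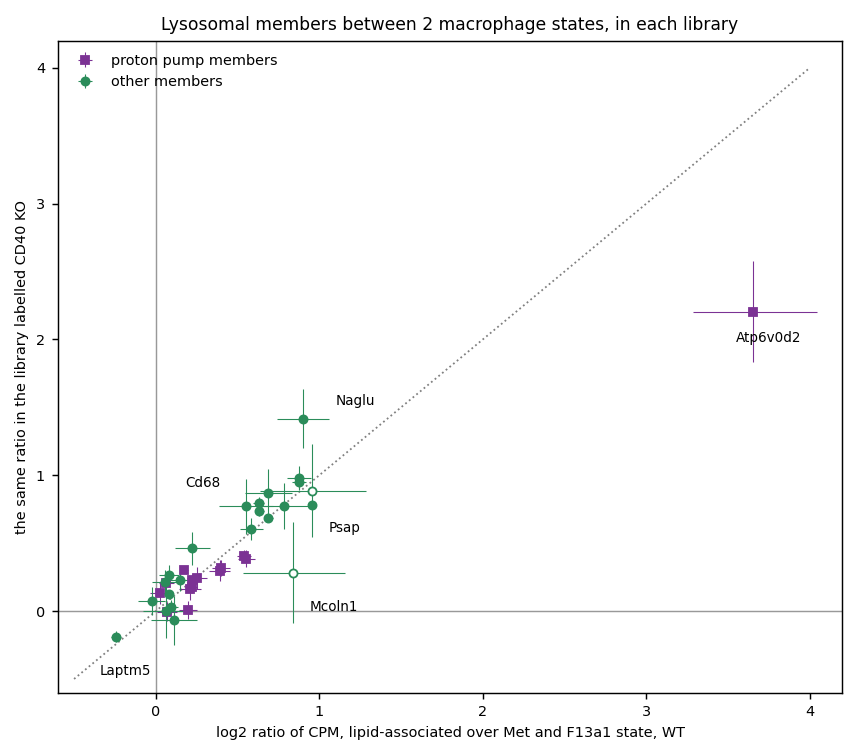
Log2 ratio of CPM, lipid-associated over Met and F13a1 state, in WT (horizontal) and in the KO-labelled library (vertical); squares are proton pump members, circles the other members, open circles members under 10 CPM in a library, bars 95% intervals for counting error, and the dotted line marks equal ratios. Most members lie close to the line, and Atp6v0d2 lies far below it, at 3.65 and 2.20.

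Glycosidases led this pattern, with 5 of 6 past the limit in both libraries and medians of 0.68 and 0.77. Naglu had ratios of 0.90 (0.74 to 1.06) in WT and 1.41 (1.2 to 1.63) in the KO-labelled library, Hexa 0.88 and 0.95, Glb1 0.78 and 0.77, Gusb 0.58 and 0.60, and Gaa 0.55 and 0.77. Man2b1 stood apart from the other glycosidases, at -0.02 and 0.07. Tpp1 had 0.88 and 0.98, Psap 0.96 (0.94 to 0.97) and 0.78 (0.76 to 0.80), Pla2g15 0.69 and 0.87, and Grn 0.63 and 0.74. Npc2 and Npc1, the cholesterol pair, were nearly level between the states, at 0.08 and 0.12 for Npc2 and 0.15 and 0.23 for Npc1. Lamp1 (0.69 and 0.69) and Cd68 (0.63 and 0.80) were higher in the lipid-associated state, Lamp2 (0.09 and 0.03) and Scarb2 (0.06 and 0.21) were within the limit, and Laptm5 was lower but within it, at -0.24 (-0.28 to -0.21) and -0.19 (-0.23 to -0.15). Tfeb (0.06 and 0.00) and Tfe3 (0.11 and -0.07) were level within their intervals, apart from the enzymes. Of the V1 subunits, Atp6v1b2 (0.55 and 0.39) and Atp6v1a (0.54 and 0.41) passed the limit in both libraries. Atp6v1c1 (0.39 and 0.30) and Atp6v1h (0.40 and 0.32) passed it in WT only. The accessory gene Atp6ap2 was within the limit, at 0.02 and 0.13.

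Atp6v0d2 was the member with the sharpest pattern across states. In WT its level was 43.3 CPM (41.5 to 45.1) in the lipid-associated state, 45.5 CPM (40.6 to 50.8) in the cycling state, 18.9 CPM (13.7 to 25.4) in the interferon state (cluster 3) and 3.4 CPM in the Met and F13a1 state. In the KO-labelled library the levels in the same order were 17.8 CPM (15.8 to 20), 43.2 CPM (39.3 to 47.4), 12.7 CPM (5.82 to 24.1) and 3.9 CPM. The intervals of the 2 libraries lay apart only in the lipid-associated state, where the log2 ratio was -1.28 (-1.47 to -1.10), while in the cycling state it was -0.07 (-0.29 to 0.14). The lipid-associated state exceeded the Met and F13a1 state by 3.65 (3.28 to 4.04) in WT and 2.20 (1.83 to 2.58) in the KO-labelled library. At 3000 UMIs per barcode, 8.70% of WT barcodes of the lipid-associated state had an Atp6v0d2 UMI (7.72 to 9.75). In the other library the share was 3.80% (2.56 to 5.41). In the Met and F13a1 state the shares were 0.945% and 0.718%. Of 139 WT fibroblast-like barcodes 0 had one, with an upper bound of 2.62%, and 3 barcodes would make 2.16%. Unthinned shares were 20.4% and 12.8% in the lipid-associated state and 1.28% in WT fibroblast-like barcodes. Gpnmb, which defines the lipid-associated state, was itself lower within it, at 873 and 513 CPM, and its part in the result was not tested. Atp6v0d1 varied far less, between 147 and 160 CPM over the 4 clusters in WT and between 147 and 186 CPM in the other library.

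**Figure D3:**
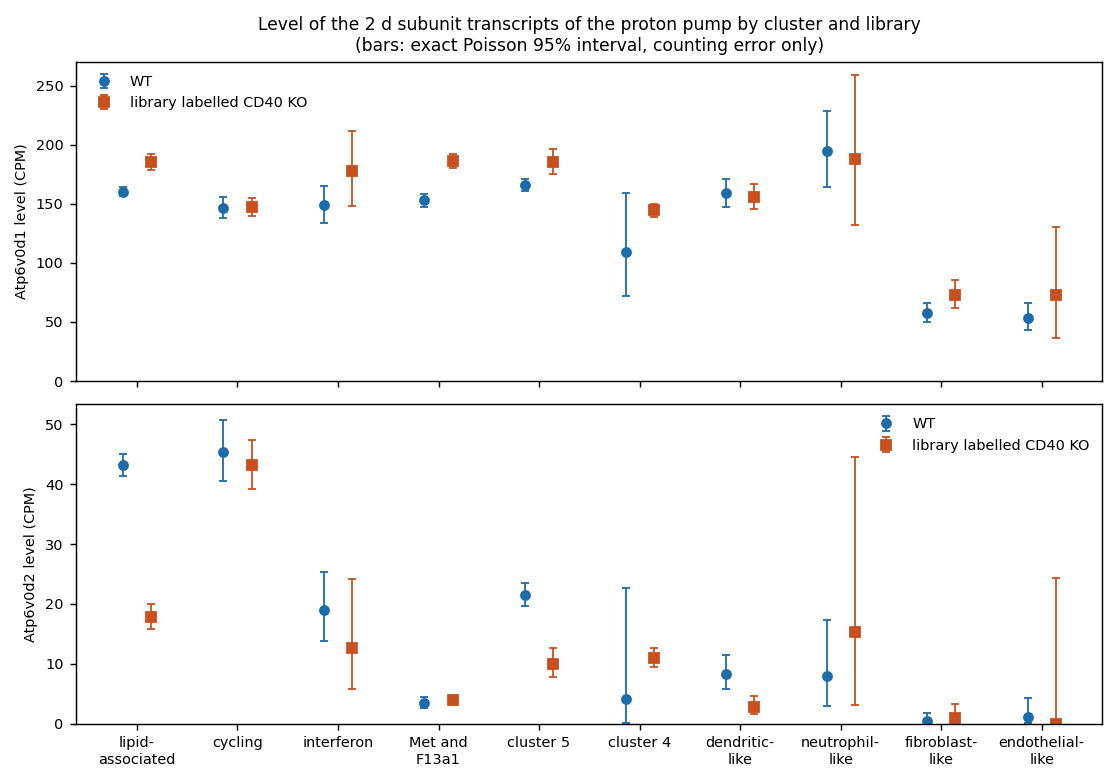
Level in CPM of Atp6v0d1 (top) and Atp6v0d2 (bottom) by cluster or cell type in WT (circles) and in the KO-labelled library (squares), with exact Poisson 95% intervals for counting error. Atp6v0d2 is at 43.3 and 17.8 CPM in the lipid-associated state and at 45.5 and 43.2 CPM in the cycling state, while Atp6v0d1 lies between 147 and 186 CPM in all macrophage states.

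The cycling state was compared with the same reference state. Over the Met and F13a1 state, 10 of 35 members were at least 1.3-fold higher and none lower in WT (21.9% of 7718 genes higher, 16.9% lower), and 5 were higher and 1 lower in the KO-labelled library (27% of 7824 genes higher, 17.2% lower). The higher shares are near or under their backgrounds. Of the glycosidases 4 and 3 of 6 were higher, with Naglu at 0.90 and 0.97 and Hexa at 0.60 and 0.32, while Laptm5 (-0.31 and -0.44) was the member past the limit downward in the KO-labelled library. Atp6v0d2 was 3.72 and 3.48 higher on the log2 scale in the cycling state.

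Member UMIs per barcode gave the same order of states. Psap, with the highest level of the members, weighs most in these sums too. After thinning to 3000 UMIs, a WT barcode of the lipid-associated state held a median of 48 member UMIs (10th to 90th percentile 28 to 71), and one of the KO-labelled library 37 (20 to 63). In the Met and F13a1 state the medians were 34 (23 to 50) and 29 (18 to 42). The ranges overlapped widely, and in both states the 10th percentile, the median and the 90th percentile were each lower in the KO-labelled library.

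**Figure D4:**
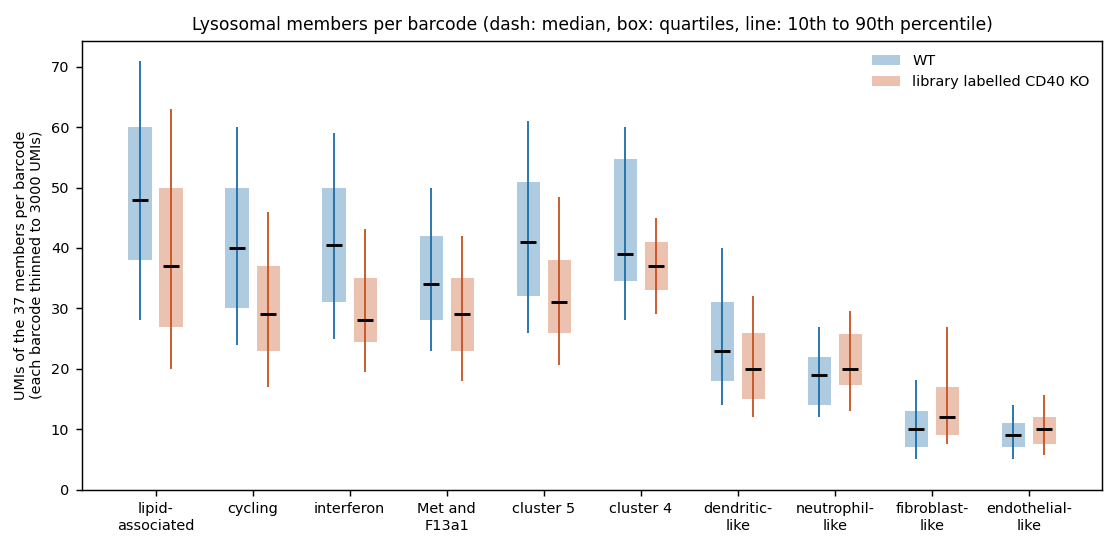
UMIs of the 37 members per barcode after thinning each to 3000 UMIs, by cluster or cell type, in WT (blue) and in the KO-labelled library (orange); the dash is the median, the box the quartiles and the line the 10th to 90th percentile over barcodes, which are not replicates. Medians are 48 and 37 in the lipid-associated state, 34 and 29 in the Met and F13a1 state, 23 and 20 in dendritic-like and 9 and 10 in endothelial-like barcodes.

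Outside the class, the members' share of UMIs was lowest in stromal and B-like barcodes. It was 0.321% of UMIs in WT endothelial-like barcodes (186 barcodes), 0.352% in WT fibroblast-like (156), 0.714% in WT neutrophil-like (296) and 0.992% in WT dendritic-like barcodes (255). The corresponding shares in the KO-labelled library were 0.574% (12 barcodes), 0.403% (76), 0.748% (63) and 0.822% (238). The share was 0.333% in the 29 B-like and 0.674% in the 44 lymphoid barcodes with T or NK markers of WT, too few to give single members. Transcripts of macrophage genes set a floor under these values, and their source, free RNA or remaining doublets among others, was not tested. The macrophage genes C1qa, C1qb, C1qc, Lyz2, Adgre1 and Fcgr1 stood in WT endothelial-like barcodes at 2.46% to 2.91% of their class level and in WT fibroblast-like barcodes at 5.14% to 7.05%, and in fibroblast-like barcodes of the other library at 13.9% to 17.5%. Above that floor lay 33 of 37 members in WT endothelial-like and 33 of 37 in WT fibroblast-like barcodes. Cd68, Laptm5, Dnase2a and Atp6v0d2 did not: in WT endothelial-like barcodes Cd68 was at 3.83% and Laptm5 at 4.02% of the class level, with lower bounds under the floor's upper value. The share of all genes above that floor was not computed, so the 33 of 37 do not set the members apart from other genes. Endothelial-like barcodes of the KO-labelled library were 12, with a floor of 19.6% to 55.7%, and are not described further.

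In fibroblast-like barcodes 1 of 36 measured members was at least 1.3-fold higher than in the class and 32 lower in WT (44.9% of 8629 genes higher, 27% lower), and 3 of 35 higher and 31 lower in the other library (32.6% of 8529 genes higher, 34.2% lower). All measured pump members were lower in both. Smpd1 was the WT member above the class, at 13.9 against 9.0 CPM (0.63, interval 0.21 to 1.04), and Smpd1 (0.84), Scarb2 (0.73) and Gaa (0.57) were the 3 in the other library. In WT endothelial-like barcodes 1 of 36 was higher, again Smpd1 (0.83, interval 0.21 to 1.38), and 33 lower (45.4% of 8682 genes higher, 25% lower).

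Neutrophil-like barcodes showed another balance of the same genes. In WT 5 of the 35 measured were at least 1.3-fold above the class and 23 lower (29.8% of 7501 genes higher, 45.1% lower), and in the KO-labelled library 5 higher and 19 lower (29.7% of 7161 genes higher, 49.8% lower). In WT and in the other library the 5 were Scarb2 (1.09 and 1.39), Tfeb (0.78 and 1.44), Atp6v1e1 (0.65 and 1.11), Atp6ap2 (0.54 and 1.41) and Lamp2 (0.45 and 0.95). Psap (-2.89 and -2.20), Grn (-2.55 and -2.57) and Cd68 (-2.54 and -1.29) were far lower. The median was -1.6 and -1.51 outside the pump and -0.39 and -0.20 within it. Median depth in these barcodes was 2356 and 2980 UMIs, and the macrophage genes stood at 5.95% to 29.5% and 10.4% to 17.9% of their class level.

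Dendritic-like barcodes were lower in most members, with 25 of 35 at least 1.3-fold lower than in the class and none higher in WT (20.2% of 7567 genes higher, 17.6% lower), and 19 of 34 lower and none higher in the KO-labelled library (12.2% of 7647 genes higher, 19.5% lower). Psap had ratios of -1.10 and -0.89, Cd68 -0.94 and -0.60, and Grn -0.82 and -0.78. Laptm5 lay above 0 in both, at 0.34 (0.28 to 0.39) and 0.26 (0.22 to 0.31), as did Scarb2 (0.18 and 0.20), inside the limit.

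**Figure D5:**
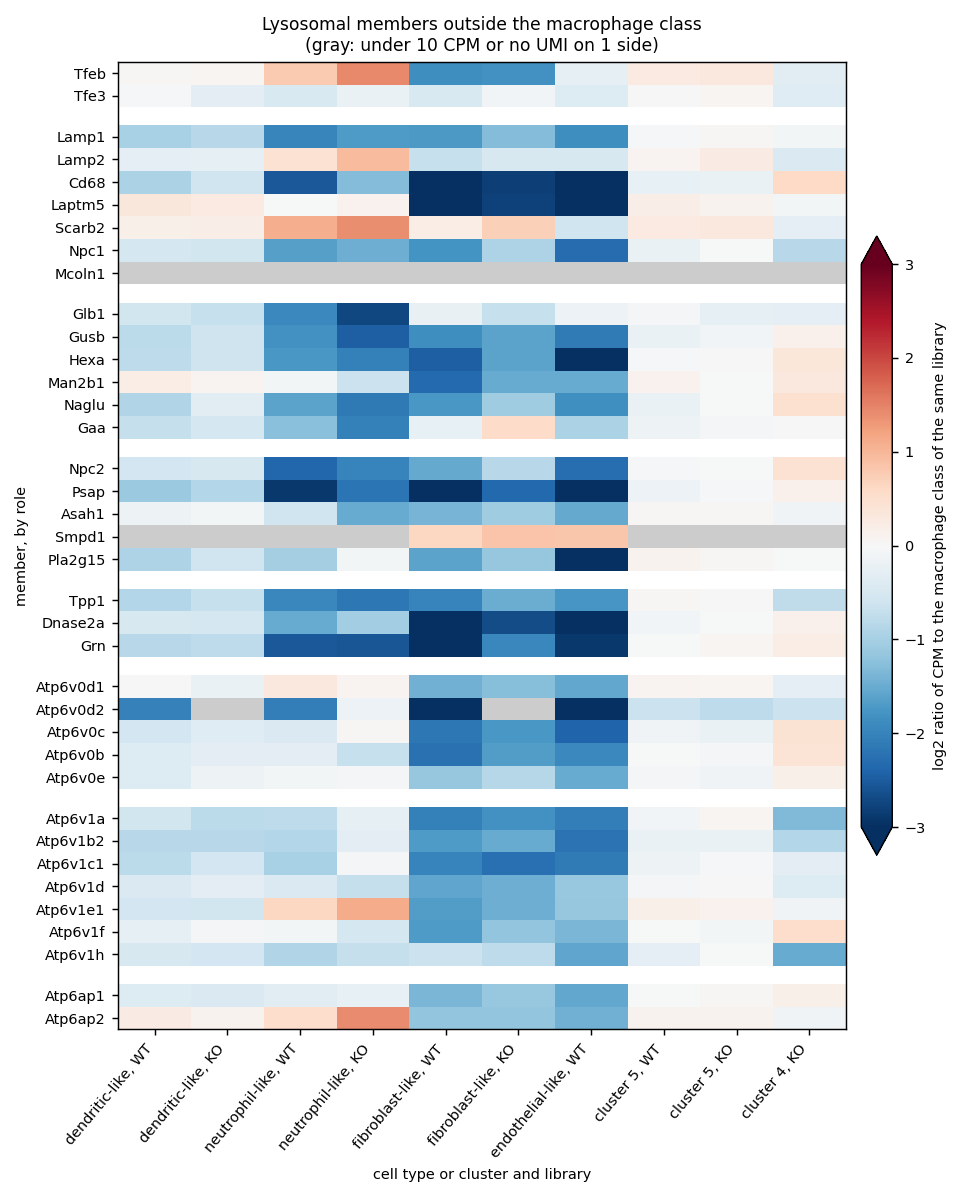
Log2 ratio of CPM of each member (vertical, by role) in cell types and unnamed clusters (horizontal) to the macrophage class of the same library; KO is the KO-labelled library, red is higher, blue lower, and gray marks members under 10 CPM or without a UMI on 1 side. Stromal columns are blue for nearly all members, neutrophil-like columns are red for Tfeb, Lamp2, Scarb2, Atp6v1e1 and Atp6ap2, and cluster 4 is red for Cd68 and blue for Atp6v1a and Atp6v1h.

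Cluster 4, which holds most barcodes of the KO-labelled library, kept macrophage markers but had its own profile of members. It was shallow (median 3205 UMIs), with a median of 5.15% mitochondrial UMIs, 16.5% of UMIs from ribosomal protein genes, and neutrophil markers at 968 CPM and fibroblast markers at 304 CPM in sum. Against the class of the same library, 6 of 35 members were at least 1.3-fold higher and 8 lower (13.7% of 7497 genes higher, 50.3% lower), with a median of -0.09 beside -0.39 over all genes. The 6 were Cd68 (0.60), Atp6v1f (0.56), Naglu (0.47), Npc2 (0.45), Atp6v0c (0.42) and Atp6v0b (0.42). The 8 included Atp6v1h (-1.50), Atp6v1a (-1.33), Atp6v1b2 (-0.88), Npc1 (-0.84) and Tpp1 (-0.75). Subunits of 1 pump sector thus lay on both sides, Atp6v1f higher and Atp6v1a and Atp6v1h lower. The genes differ in length: the 6 higher ones span 1941 (Cd68) to 18591 bases (Npc2). Of the lower ones named, Atp6v1h, Atp6v1a, Npc1 and Atp6v1b2 span 92512, 54304, 46709 and 25066 bases, and Tpp1 spans 7425. The part of gene length in this profile was not tested. Against the class of WT, none of 35 members was higher and 14 were lower (13.5% of 7351 genes higher, 48.4% lower). Cluster 5, with neutrophil genes in the lead beside macrophage markers, was close to the class: only Atp6v0d2 passed the limit in either library, at -0.64 and -0.78 (1.56% of 7507 and 4.37% of 7649 genes lower, 6.65% and 6.77% higher, no member among the latter).

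The other lysosomal lists, apart from the pump, had medians nearer to 0 than the members. Each list median still lay below the 0.09 over all genes, of which 19.8% were at least 1.3-fold higher and 10.4% lower. Of 26 measured other lysosomal enzymes, 2 were at least 1.3-fold higher and 6 lower in the class of the KO-labelled library, with a median of -0.05. Creg1, among the lower ones, was at 478 and 273 CPM (-0.81). The highest were Plbd1 (0.54) and Hgsnat (0.53). Of 16 other lysosomal membrane genes, 1 was higher, the metal transporter gene Slc11a1 at 83.5 and 131 CPM (0.65), and 1 lower, Slc15a4 (-0.40), with a median of -0.05; Slc38a9 (0.37) and Slc29a3 (-0.36) were next. Of the 4 other pump subunits measured of 11 listed, Atp6v1g1 was lower, at 563 and 370 CPM (-0.60), while Tcirg1, the a3 subunit of V0, was at 124 and 154 CPM (0.32, interval 0.28 to 0.36), and Atp6v0a2 (-0.31) and Atp6v0a1 (-0.28) were within the limit, with a list median of -0.30.

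Genes of sorting, nutrient sensing and autophagy spread to both sides, beside 19.8% of all genes higher and 10.4% lower. Of 17 lysosomal sorting genes, 3 were higher and 2 lower (median 0.04), with Gnptab (0.43), which makes the mannose 6-phosphate tag, and Vps16 (0.40) highest and Sort1 (-0.42) and Nagpa (-0.40) lowest. Of 15 genes of the MiT/TFE family and of nutrient sensing by mTORC1, 1 was higher, Rptor (0.44), and 5 lower (median 0.01). Slc38a9, in the membrane list, senses arginine for the same complex, and Ppp3cb, a calcineurin subunit, was next at 0.33. The lowest were Lamtor1 (321 and 186 CPM, -0.78) and Lamtor5 (-0.58), subunits of the Ragulator complex that anchors mTORC1 to the lysosome. Mitf, the relative of Tfeb, was at 185 and 229 CPM (0.31, interval 0.27 to 0.35), on the other side of 0 from Tfeb and Tfe3. Of 13 autophagy genes, 1 was higher and 1 lower (median -0.03): Atg16l1 (0.54) and Gabarap, at 1287 and 732 CPM (-0.81), with Uvrag (0.37) and Gabarapl2 (-0.37) next. Gene length differs here too: Rptor, Uvrag and Mitf span 296672, 256121 and 214298 bases, Lamtor5 and Gabarap 5225 and 3809. Sort1 (77430), lower, and Vps16 (19931), higher, went the other way, and the part of length was not tested.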

How the data were processed

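The kit was Chromium 3′ v3 according to the labels' protocols. The authors deposited raw UMI counts by gene and barcode. Cell Ranger 7.0.1 made them, per the file headers, and the submitters' processing notes add STAR and the build mm10. No source used here states whether intronic reads or strand entered the counts. The members and gene lists were chosen with earlier results of these data known.

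Filters of 1000 UMIs and 500 genes as minimum and 10% mitochondrial UMIs as maximum passed 8094 and 7930 barcodes (WT first, then the library labelled CD40 KO). Scrublet's own threshold marked 0 barcodes in each library and was not used; the top scores were removed at 0.8% per 1000 deposited barcodes (688 and 517). A first run used a rate per filtered barcodes. It merged dendritic-like cells with macrophages, and the rate was changed after its clusters and member values had been seen. Both libraries were clustered together (scanpy 1.11.5, igraph 0.11.9, Leiden resolution 0.6, 2000 variable genes, 30 principal components, 15 neighbours) without Cd40, sex-linked, mitochondrial, ribosomal protein, haemoglobin and all listed lysosomal genes. Clusters were named by marker genes. A cluster led by another type's markers stayed unnamed where its core macrophage markers exceeded 75% of their level in the largest macrophage cluster. So did a large cluster with at least 95% of its barcodes from 1 library, at equal library size, and few from the other. These limits were chosen with the clusters in view.

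Raw UMIs were summed per cluster and library and scaled to CPM, with exact Poisson intervals. Ratios have exact conditional (Clopper-Pearson) intervals and shares exact binomial ones, all at 95%. Interval coverage was tested on simulated data. UMIs are not independent of the library they come from, so intervals cover counting error only. The level minimum was 10 CPM as the mean of both sides, and genes were counted from 1.3-fold. A count of 0 is given with the limit that 3 barcodes would make. Positions are from GENCODE vM21, promoter sequences from RefSeq (GRCm38.p6). Named were the 4 highest and 4 lowest members by ratio between libraries and, in WT, between states, a set list of 13 members, the 2 highest and 2 lowest of each other list, and Cd40, except 1 gene that is not reported here. Others were named after their values were seen. Python 3.11.15 was used with matplotlib 3.10.9, scikit-learn 1.9.0, pandas 2.3.3, scipy 1.17.1 and numpy 2.4.6.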

Additional observations from a re-analysis of the deposited data

How the results depend on the processing

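With 1 library per group no replicate could be left out. No paired analysis was possible because each group has 1 library. In no setting did a called value change its direction, and each of the 13 members called lower in the class stayed below 0 in all 20 other settings; 8 of them stayed past the 1.3-fold limit in all 20, and Gaa (19), Cd68 (18), Atp6ap1 (17), Grn (16) and Atp6v0e (16) in most. Lamp2, Scarb2, Atp6v1a and Atp6v1h, none of them called, changed sign in some settings.

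In the class the members' median ratio of -0.23 was -0.32 with median-of-ratios scaling and -0.18 without ribosomal protein and mitochondrial genes, and the count lower was 4 at a limit of 1.5-fold. With cluster 4 added to the class the median was -0.27 and the count lower was 11. Between states, the median in the library labelled CD40 KO was 0.35 after thinning, 0.21 at resolution 0.3 and 0.36 with the first doublet rate. In WT it was 0.37 without doublet removal and 0.33 with the first doublet rate, and 10 members were higher at 1.5-fold. Within the Met and F13a1 state, the count lower was 12 at 1.2-fold, 1 at 1.5-fold, 2 without doublet removal, 2 at resolution 0.3 and 3 with the first doublet rate, and the count higher was 1 at 1.2-fold. Within the cycling state 5 were lower at 1.5-fold, and the count higher was 2 without ribosomal protein and mitochondrial genes, 1 with no level minimum, 1 at 1.2-fold and 1 with barcodes weighted equally. Within the lipid-associated state the median was -0.19 with median-of-ratios scaling and -0.20 at resolution 0.3. Its count lower was 7 with median-of-ratios scaling, 10 at 1.2-fold, 5 with barcodes weighted equally, 10 after thinning and 9 at resolution 0.3, and its count higher was 1 at 1.2-fold. The cause was not tested. Shares over all genes at these other settings are not given here, so these counts are not read against a background. The first doublet rate and the additions of clusters 4 and 5 were chosen after seeing the data. Resolution 0.3 gave no cycling cluster. Clusters of other clusterings took the name of the one with which they shared most barcodes and are not independent of the naming used. Depth limits Mcoln1, Smpd1 and the rarer cell types of the library labelled CD40 KO most.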
